A study of Rattus norvegicus with 8 samples.

Results

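Chemokines are small secreted proteins that bind receptors on leukocytes and draw these cells along a gradient, and they are grouped as CC, CXC and CX3C by the spacing of their first cysteines. Cytokines such as interleukin-1 beta and tumor necrosis factor signal between cells, and many of them act on target genes through NF-kB or through Janus kinases and STAT proteins. In the kidney, tubule and endothelial cells as well as resident and infiltrating leukocytes can make them, and raised chemokine expression is known from many forms of tubule injury.

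The genes described here were those of the platform annotation whose symbol names a CC, CXC or CX3C chemokine or a receptor for one, together with 13 named cytokines, receptors and partners (Il1b, Il6, Il10, Il18, Il33, Il34, Tnf, Csf1, Lif, Il1rn, Il6r, Il1r1 and Icam1). They numbered 53 of the 14217 genes that could be named, comprising 16 CC, 11 CXC and 1 CX3C chemokines, 6 CC, 5 CXC and 1 CX3C chemokine receptors, 9 cytokines, 1 cytokine antagonist, 2 cytokine receptors and the adhesion molecule Icam1. Each gene was represented by its probe set with the highest mean over all arrays.

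Levels were measured in the left kidneys of 8 female Sprague-Dawley rats aged 29 weeks, with 1 Affymetrix rat genome array for the kidney of each rat. The 4 Si deplete rats (the labels call this diet Si deprived) had a daily intake of 0.17 mg Si per kg of body weight for 26 weeks, and the 4 Si replete rats one of 4.1 mg per kg. Both groups ate the same formulated low-Si feed, and the Si replete rats received orthosilicic acid in their drinking water. Values are log2 levels from gcRMA, a method that removes a background predicted from each probe's sequence and puts the arrays on one scale, and all differences are Si deplete minus Si replete on that scale. RNA came from whole ground kidney, so more cells of a type and more RNA per cell cannot be told apart. The 9 measured markers of nephron epithelium and podocytes were all present, with mean levels of 8.13 to 13.50. The array medians were 3.85 to 3.92 in the Si deplete group and 3.80 to 3.84 in the Si replete group. Every Si deplete median thus lay above every Si replete one, a small offset in the direction of higher values. A mean under 4, the lower end of the scale, was found for 51.3% of all probe sets. On the first principal component of all probe sets, which held 42.1% of the variance, Si deplete replicate 1 stood apart at 64.0, with the other arrays at -25.9 to 19.2. Values without this array are given beside many of the larger differences.

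None of the 53 genes passed limma's moderated test at an adjusted p of 0.1, and their adjusted p-values ran from 0.165 to 0.997. Of all genes, 0.169% were called higher and 0.0352% lower in Si deplete kidneys. At an unadjusted p under 0.05, 11 of the 53 were higher (20.8%, against 10.5% of all genes) and 1 was lower (1.89%, against 7.95%). With each array's median subtracted, 9 were higher and 1 lower, against 7.53% and 12.8% of all genes. The groups did not overlap for 8 genes. In 7 of them (13.2%, against 6.45% of all genes) the Si deplete kidneys were the higher ones, and in 1 (1.89%, against 5.49%) the lower ones. The 7 were the CXC chemokines Cxcl10, Cxcl11 and Cxcl16, the CC chemokine Ccl19, the CX3C chemokine Cx3cl1, the cytokine Il34 and the adhesion molecule Icam1, and the 1 was Ccl11. With array medians subtracted, the groups overlapped for Cxcl10 and Cxcl16. For each of the 8 non-overlapping genes an exact permutation test gave a 2-sided p of 0.0286, the smallest that 4 arrays against 4 allow. Any gene without overlap gets this p, so it restates the lack of overlap and adds no further evidence. Differences were above 0 for 40 of the 53 genes and below 0 for 13, with a median of 0.12, where the median of all genes was 0.00013.

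**Figure D1:**
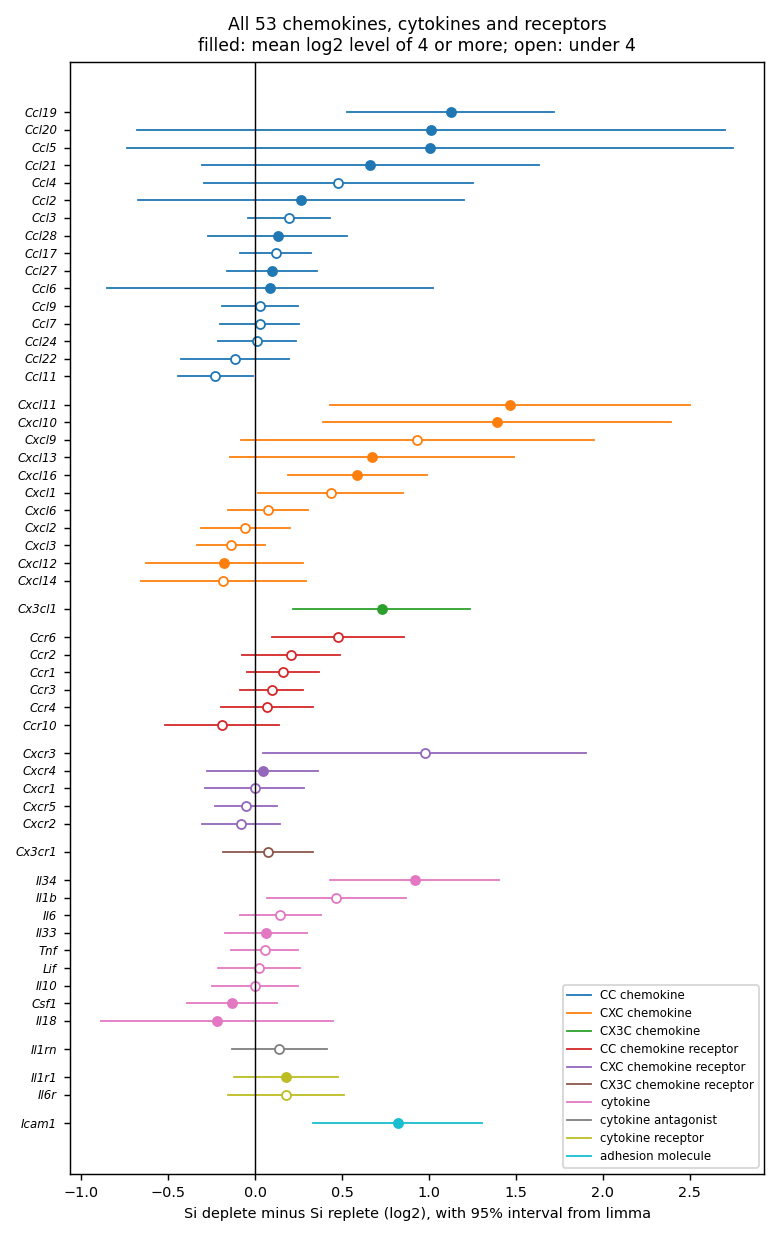
Si deplete minus Si replete difference of each of the 53 genes on the log2 scale (x axis), with the 95% interval from limma (4 arrays per group); colours mark the kind of gene, and filled points a mean level of 4 or more. The widest intervals are those of Ccl5 and Ccl20. The intervals of Ccl19, Cxcl10, Cxcl11, Cxcl16, Cx3cl1, Il34, Icam1, Ccr6, Cxcl1, Cxcr3 and Il1b lie wholly above 0, and that of Ccl11 wholly below.

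The larger differences stood mostly in the brighter probe sets. Among the 21 genes with a mean level of 4 or more, 18 had differences above 0 and the median difference was 0.59, against 0.01 over the 9489 genes of that level. Of these 21, 7 did not overlap between groups (33.3%, against 8.13% higher among all genes of that level). The 32 genes with a mean under 4 had a median difference of 0.07, and only Ccl11 among them did not overlap (3.12%, with Si deplete lower). Of all 14217 genes, 781 did not overlap with Si deplete lower, and 639 of these were among the 9489 with a mean of 4 or more. A count of 1 in 32 therefore says little about the dim genes. Dim probe sets may leave little room to measure a difference, which was not tested, although Cxcr3 (0.97) and Cxcl9 (0.93) are among them.

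**Figure D2:**
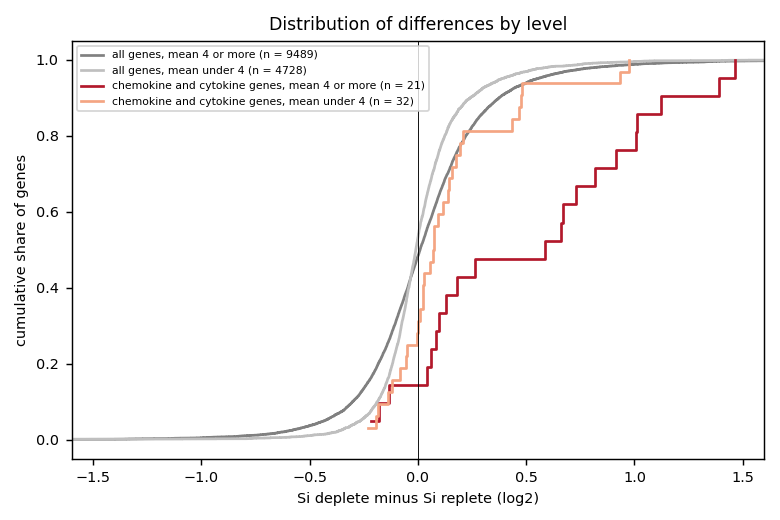
Cumulative share of genes (y axis) against the Si deplete minus Si replete difference (x axis, log2) for the 53 genes and for all named genes, each split at a mean level of 4. Above a difference of 0, the curve of the 21 brighter chemokine and cytokine genes (median 0.59) lies to the right of the others.

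Cxcl10 and Cxcl11 encode interferon-inducible ligands of the receptor Cxcr3, which is carried by activated T cells and natural killer cells. Their differences had the largest estimates of the 53 genes. Cxcl11 measured 11.57, 9.54, 9.26 and 9.49 in the Si deplete kidneys and 8.86, 8.24, 8.23 and 8.66 in the Si replete kidneys, here and throughout in the order of replicates 1 to 4. The groups did not overlap, and Si deplete replicate 1 lay well above the other kidneys. The means were 9.96 ± 1.08 (SD, n = 4) and 8.50 ± 0.32 (SD, n = 4), a difference of 1.47 (standard error 0.46) or 2.76-fold, with an adjusted p of 0.225 from limma, and of 0.93 without Si deplete replicate 1. Cxcl10 measured 7.50, 5.55, 5.19 and 6.69 in Si deplete kidneys and 5.17, 4.66, 4.85 and 4.70 in Si replete kidneys. Si deplete replicates 1 and 4 were the high ones, whereas Si deplete replicate 3 lay just above the highest Si replete kidney. The difference in Cxcl10 was 1.39 (standard error 0.44; limma, adjusted p = 0.227), or 2.62-fold, and it became 0.97 without Si deplete replicate 1 and 0.53 without Si deplete replicates 1 and 4.

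The third Cxcr3 ligand, Cxcl9, was dim and uneven. It measured 2.70, 3.00, 2.44 and 4.84 in Si deplete kidneys and 2.16, 2.33, 2.28 and 2.48 in Si replete kidneys, so that a single kidney, Si deplete replicate 4, exceeded 4. Its difference was 0.93 (standard error 0.45; limma, adjusted p = 0.370), or 0.40 without that kidney, and it was 0.51 on its other probe set. Cxcr3 itself measured 4.42, 4.06, 3.30 and 5.65 in Si deplete kidneys and 3.68, 3.30, 3.32 and 3.23 in Si replete kidneys. The groups overlapped through Si deplete replicate 3, and the difference was 0.97 (standard error 0.41; limma, adjusted p = 0.319), or 0.54 without Si deplete replicate 4. Of these 4 genes, Cxcl9 and Cxcr3 were thus highest in replicate 4 and Cxcl10 and Cxcl11 in replicate 1 of the Si deplete group.

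Cd3e, a chain of the T cell receptor complex, is shown beside them. It measured 5.59, 5.13, 4.49 and 6.22 in Si deplete kidneys and 4.51, 4.28, 4.24 and 4.48 in Si replete kidneys (difference 0.98, standard error 0.31; limma, adjusted p = 0.226). The order of the Si deplete kidneys was the same for Cd3e as for Cxcr3, with replicate 4 highest and replicate 3 lowest. Among the other T and NK cell markers, Cd247, Cd5, Cd3g and Cd2 had this order too. Cd3d, Cd8a, Cd8b, Nkg7, Klrd1 and Gzmb were instead highest in Si deplete replicate 1, Cd4 in replicate 2 and Prf1 in replicate 3. Over the 13 T and NK cell markers, 9 of which had a mean under 4, the mean level per kidney ran from 3.19 to 3.98 in the Si deplete group and from 3.12 to 3.43 in the Si replete group, and 12 of the 13 differences were above 0. The part of T and NK cells in the differences of Cxcr3 and its ligands was not tested.

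**Figure D3:**
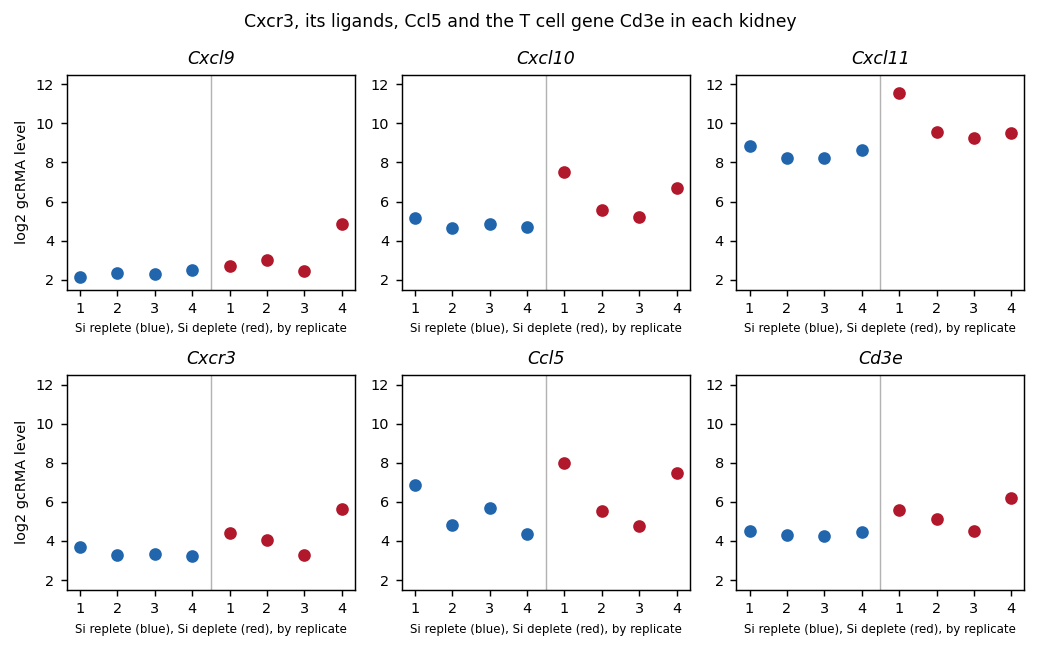
Log2 gcRMA level (y axis) of Cxcl9, Cxcl10, Cxcl11, Cxcr3, Ccl5 and Cd3e in each kidney (x axis, replicates 1 to 4 of each group), 1 point per array. Cxcl11 is highest in Si deplete replicate 1 (11.57), while Cxcl9 (4.84), Cxcr3 (5.65) and Cd3e (6.22) are highest in Si deplete replicate 4; levels of different genes are not comparable between panels.

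Icam1 encodes the endothelial and epithelial ligand of leukocyte integrins, Cx3cl1 (fractalkine) a membrane-bound chemokine, and Cxcl16 a further membrane-bound chemokine. Icam1 measured 10.33, 9.59, 9.39 and 9.57 in Si deplete kidneys and 9.07, 8.49, 9.15 and 8.88 in Si replete kidneys. The difference was 0.82 (standard error 0.22; limma, adjusted p = 0.183), or 0.62 without Si deplete replicate 1. Cx3cl1 measured 10.06, 9.20, 8.99 and 9.27 against 8.84, 8.32, 8.87 and 8.59, a difference of 0.73 (standard error 0.23; limma, adjusted p = 0.221), or 0.50 without that kidney. In both genes Si deplete replicate 1 was highest and Si replete replicate 2 lowest, and the nearest kidneys of the 2 groups were close. Cxcl16 measured 10.999, 10.990, 10.28 and 10.51 in Si deplete kidneys and 10.14, 10.20, 9.82 and 10.26 in Si replete kidneys (difference 0.59, standard error 0.18; limma, adjusted p = 0.216; 0.49 without Si deplete replicate 1). Here Si deplete replicates 1 and 2 were the high ones and replicate 3 lay just above the Si replete group. Cx3cr1, the receptor for Cx3cl1, was dim in all kidneys (mean 2.47) and differed by 0.07 (standard error 0.12).

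Il34 is a ligand of the receptor Csf1r that maintains macrophages. It measured 10.04, 9.36, 9.38 and 9.13 in Si deplete kidneys and 8.88, 8.19, 8.41 and 8.78 in Si replete kidneys, with a difference of 0.92 (standard error 0.22; limma, adjusted p = 0.165), or 1.89-fold, and of 0.73 without Si deplete replicate 1. Csf1, the other ligand of that receptor, was near 4 in every kidney and differed by -0.14 (standard error 0.11; limma, adjusted p = 0.611), with a 95% interval of -0.39 to 0.12, and by -0.05 to 0.19 on its other probe sets. The difference between the 2 genes' differences was not tested. Csf1r itself differed by 0.54 (standard error 0.25; limma, adjusted p = 0.362). Over the 13 macrophage and myeloid markers, the mean level per kidney was 6.08 to 6.74 in the Si deplete group and 5.49 to 6.43 in the Si replete group, with 12 of 13 differences above 0. Of these markers, Cd68, Itgam and Cd163 had a mean under 4. Their part in the differences of the chemokines was not tested.

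Ccl19 and Ccl21 both bind Ccr7, which guides T cells and dendritic cells in lymphoid tissue. Ccl19 measured 5.97, 6.72, 5.85 and 6.99 in Si deplete kidneys and 4.90, 5.43, 5.16 and 5.55 in Si replete kidneys. Its difference of 1.12 (standard error 0.26; limma, adjusted p = 0.165), or 2.18-fold, had the smallest p of the 53 genes, and, in contrast to the other 6 non-overlapping higher genes, Si deplete replicate 1 was not its highest kidney. Without Si deplete replicate 3 it was the only one of the 53 to pass, at a difference of 1.30 (limma, adjusted p = 0.0981), in a fit that called 1.15% of all genes higher. As single arrays were left out, the Ccl19 difference ran from 0.92 (without Si deplete replicate 4) to 1.30. The adjusted p-values of these limma fits ran from 0.0981 to 0.362. Ccl21 measured 7.29, 8.25, 6.10 and 7.18 against 6.74, 6.23, 5.96 and 7.25, and the groups overlapped (difference 0.66, standard error 0.43; limma, adjusted p = 0.496). The Ccl21 difference was 0.32 without Si deplete replicate 2 and 1.03 without Si deplete replicate 3. Cxcl13, which draws B cells, measured 7.91, 8.46, 8.60 and 7.71 against 6.49, 8.25, 7.36 and 7.91 and likewise overlapped (difference 0.67, standard error 0.36), and its difference was 0.33 without Si replete replicate 1. The 4 measured B cell markers were all under a mean of 4, and their mean level per kidney was 2.28 to 2.81 with Si depletion and 2.17 to 2.36 without.

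**Figure D4:**
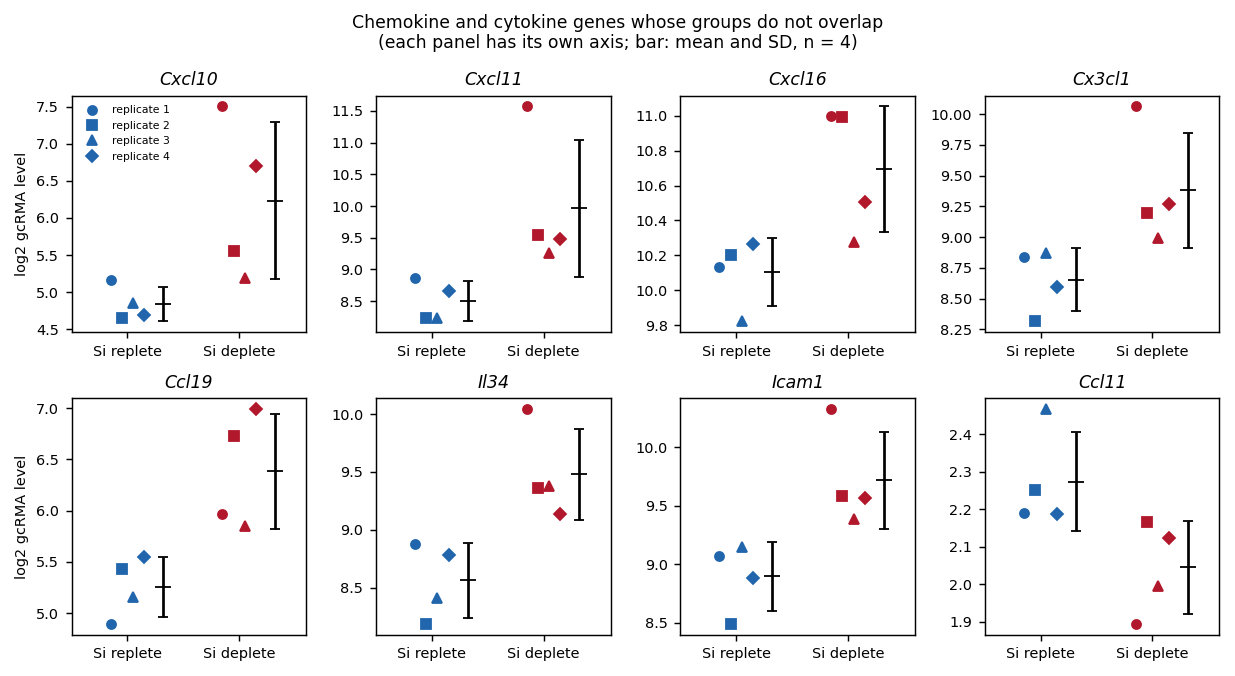
Log2 gcRMA level (y axis, own scale in each panel) of the 8 genes whose groups do not overlap, by kidney; colours mark the groups, symbols the replicate number, and bars the mean ± SD (n = 4). Si deplete replicate 1 is the highest kidney for Cxcl10, Cxcl11, Cxcl16, Cx3cl1, Il34 and Icam1, and Si deplete replicate 4 for Ccl19.

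For Ccl5 and Ccl20 the spread within groups exceeded most of the difference. Ccl5 (RANTES), made by T cells among others, measured 8.01, 5.55, 4.77 and 7.49 in Si deplete kidneys and 6.88, 4.83, 5.71 and 4.37 in Si replete kidneys. Its difference of 1.01 had a standard error of 0.77, and without Si deplete replicates 1 and 4 it became -0.29. Ccl20, the ligand of Ccr6, measured 9.04, 6.41, 5.40 and 5.82 against 6.83, 5.42, 4.77 and 5.61, and its difference of 1.01 (standard error 0.75) became 0.22 without Si deplete replicate 1. Ccr6 was dim, at 3.24, 3.63, 2.84 and 3.04 against 2.56, 2.72, 2.60 and 2.97, and differed by 0.48 (standard error 0.17; limma, adjusted p = 0.256).

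Several bright genes differed little. Ccl2, the main monocyte attractant, measured 7.57, 8.05, 7.88 and 9.60 in Si deplete kidneys and 8.58, 8.11, 7.51 and 7.85 in Si replete kidneys. Its difference of 0.26 (standard error 0.42) rested on Si deplete replicate 4 and was -0.18 without it, and the 95% interval of -0.68 to 1.20 leaves room for a difference in either direction. Cxcl12, a constitutive chemokine of stromal cells, measured 10.15, 11.17, 10.78 and 11.06 against 10.99, 10.89, 11.10 and 10.90. Its difference was -0.18 (standard error 0.20), with Si deplete replicate 1 lowest, and 0.04 without that kidney, while its other probe sets differed by -0.01 and -0.24. Il33, a nuclear alarmin, measured 10.37, 10.28, 10.31 and 10.23 against 10.24, 10.05, 10.15 and 10.50, and differed by 0.06 (standard error 0.10, 95% interval -0.17 to 0.30). This interval was the narrowest of the 3. Of the remaining genes with a mean of 4 or more, Ccl6, Ccl27, Ccl28, Cxcr4, Il1r1 and Il18 had overlapping groups and differences of -0.22 (Il18, an inflammasome-processed cytokine) to 0.18 (Il1r1, the interleukin-1 receptor).

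**Figure D5:**
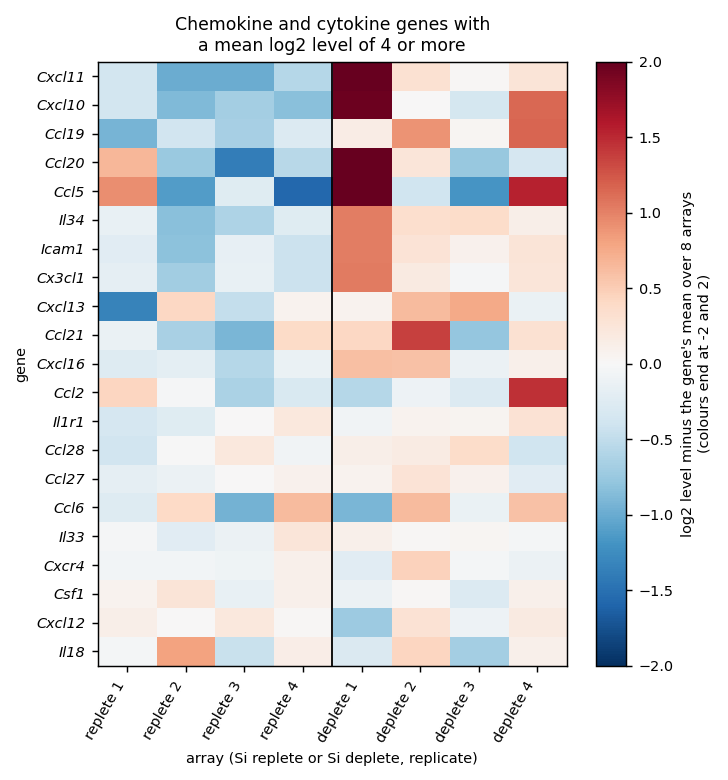
The 21 genes with a mean level of 4 or more (rows, ordered by difference) in each of the 8 kidneys (columns), coloured by log2 level minus the gene's mean over all arrays, with colours ending at -2 and 2. Si deplete replicate 1 is the highest array for 8 of the 21 genes, replicate 2 for 5, replicate 4 for 3 and replicate 3 for 2.

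Several of the cytokines were near the lower end of the scale. Il6, Tnf, Il10, Lif and the antagonist Il1rn had means of 1.27 to 2.67 and differences of -0.0031 to 0.14, and none of them differed at an unadjusted p under 0.05. At such levels a difference may not be detectable. Il1b measured 3.61, 4.04, 3.48 and 3.78 in Si deplete kidneys and 3.09, 3.54, 2.88 and 3.52 in Si replete kidneys (difference 0.47, standard error 0.18; limma, adjusted p = 0.280), and the groups overlapped only through Si deplete replicate 3. The neutrophil attractants Cxcl1, Cxcl2, Cxcl3 and Cxcl6 had means of 1.78 to 2.78. Cxcl1 measured 3.24, 2.39, 2.52 and 2.45 against 2.07, 2.42, 2.17 and 2.20, a difference of 0.43 (standard error 0.18; limma, adjusted p = 0.321), or 0.24 without Si deplete replicate 1. Their receptors Cxcr1 and Cxcr2 were equally dim (means 2.24 and 1.73) and differed by -0.0021 and -0.08, and the 5 measured neutrophil markers averaged 2.48 to 3.47 per Si deplete kidney and 2.81 to 3.21 per Si replete kidney. The other dim CC chemokines, Ccl3, Ccl4, Ccl7, Ccl9, Ccl17, Ccl22 and Ccl24, had means of 1.82 to 3.45 and differences of -0.12 (Ccl22) to 0.48 (Ccl4, which measured 4.50, 3.21, 2.60 and 3.75 against 2.98, 3.32, 2.96 and 2.88), and Cxcl14 differed by -0.18. Their groups overlapped. Ccl11 (eotaxin), the only gene below in every Si deplete kidney, measured 1.89, 2.17, 2.00 and 2.12 against 2.19, 2.25, 2.47 and 2.19 (difference -0.23, standard error 0.10; limma, adjusted p = 0.320).

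Of the 12 chemokine receptors, 11 had a mean under 4 and the remaining one, Cxcr4, the receptor for Cxcl12, differed by 0.04 (standard error 0.14) and by 0.11 and 0.01 on its other probe sets. The 6 CC receptors differed by -0.19 (Ccr10) to 0.48 (Ccr6), with a median of 0.13. The median difference was 0.07 over the 12 receptors and 0.16 over the 28 chemokines. Cxcr5, the receptor for Cxcl13, differed by -0.05 on its brighter probe set, whereas on the dimmer one the 4 Si deplete kidneys lay below the Si replete ones (-0.31, standard error 0.09; limma, adjusted p = 0.198). The dimmer probe set of Tnf did the same, at -0.18 against 0.06 on the brighter one.

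The receptor chains for cytokines outside the rule held the only call. Of 32 measured chains, 1 was called higher and none lower (against 0.169% and 0.0352% of all genes), and the median difference was 0.14. The groups did not overlap for 7 chains with Si deplete higher and for 1 with Si deplete lower (against 6.45% and 5.49% of all genes). The called chain is described first. It was Il6st (gp130), the signal-transducing chain shared by interleukin-6, Lif and related cytokines, which rose by 0.57 (standard error 0.09; limma, adjusted p = 0.0864). It measured 10.68, 10.48, 10.48 and 10.47 in Si deplete kidneys and 9.97, 9.83, 10.10 and 9.91 in Si replete kidneys, so the groups lay well apart and each was narrow. Whichever single array was left out the difference was 0.52 to 0.62, but the call held only without Si deplete replicate 3 (limma, adjusted p = 0.0776) and was lost without any other single array (adjusted p of 0.108 without Si deplete replicate 1 to 0.312 without Si replete replicate 2). Il6r, the ligand-binding chain for interleukin-6, differed by 0.18 (standard error 0.15) and Lif by 0.02, both on probe sets with a mean under 4. Tnfrsf1a, the main receptor of tumor necrosis factor (0.92, adjusted p = 0.167), and the interferon-gamma receptor chains Ifngr2 (0.60, adjusted p = 0.172) and Ifngr1 (0.45, adjusted p = 0.210) did not pass limma's test, although their groups did not overlap. Without Si deplete replicate 1 these were 0.72, 0.48 and 0.49.

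In the NF-kB pathway, none of 27 measured genes was called, the median difference was 0.16, and 10 did not overlap with Si deplete higher and 1 with Si deplete lower (against 6.45% and 5.49% of all genes). The largest of these was Bcl3, a nuclear NF-kB cofactor, with a difference of 1.86 (standard error 0.49; limma, adjusted p = 0.186), or 1.39 without Si deplete replicate 1. Nfkbiz, a further nuclear cofactor, differed by 1.44 (adjusted p = 0.139), the subunit Nfkb1 by 0.59 (adjusted p = 0.125) and the feedback inhibitor Tnfaip3 by 0.72 (adjusted p = 0.152) in the same fit. Without Si deplete replicate 1 these were 1.13, 0.52 and 0.73. Of 21 measured JAK-STAT genes none was called, 6 did not overlap with Si deplete higher (against 6.45% of all genes) and the median difference was 0.07. Among them were the feedback inhibitor Socs3 (1.01, adjusted p = 0.207), Jak3 (1.10, adjusted p = 0.189) and Stat2 (0.65, adjusted p = 0.193), at 0.68, 0.79 and 0.52 without Si deplete replicate 1. Of 13 measured leukocyte adhesion genes none was called, and Itgb2, the beta chain of the leukocyte integrins that bind Icam1, differed by 1.09 (standard error 0.20; limma, adjusted p = 0.126), with a median of 0.19 over the list; Itgb2 was at 1.10 without Si deplete replicate 1. Of 30 other cytokines and chemokine-like ligands none was called, 23 had a mean under 4 and the median difference was 0.01. The groups did not overlap for 5 of the 30 with Si deplete higher and for 1 with Si deplete lower (against 6.45% and 5.49% of all genes). Among the 5 was Cntf (0.68; limma, adjusted p = 0.134), and the 1 was Ctf1 (-0.35; limma, adjusted p = 0.178). Without Si deplete replicate 1 these were 0.79 and -0.33. Il24 had the smallest p of the 30 (1.86, standard error 0.31; limma, adjusted p = 0.112), with levels of 4.29, 3.27, 2.93 and 3.95 against 1.69, 1.31, 1.68 and 2.31, and a difference of 1.63 without Si deplete replicate 1.

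None of the 10 measured markers of injured tubules was called (smallest adjusted p 0.120 from limma). All 10 had differences above 0, and 8 did not overlap with Si deplete higher (against 6.45% of all genes). Their mean level per kidney was 9.81 to 11.30 in the Si deplete group, or 9.81 to 10.52 without Si deplete replicate 1, and 8.58 to 9.51 in the Si replete group. Fibroblast and mural markers (9 genes) lay at 6.91 to 7.84 and 6.60 to 7.00, and endothelial markers (7 genes) at 7.59 to 8.25 and 8.02 to 8.23. The part of tubule injury and of these cell types in the differences of Icam1, Cx3cl1, Cxcl10, Cxcl11, Cxcl16, Ccl19 and Il34 was not tested.

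The bases before the start of 4 of the genes are shown because their promoters hold letters known as binding sequences of NF-kB, which controls many chemokines. RefSeq promoters (assembly GRCr8) were given for 40 of the 53 genes, in 41 entries that span 250 bases before to 50 after the start, and only the bases before the start are printed. Each is written 5′ to 3′ on the gene's own strand, with matches to an NF-kB letter set on either strand in capitals.

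Cxcl10, chr14:15988816-15989065, strand +: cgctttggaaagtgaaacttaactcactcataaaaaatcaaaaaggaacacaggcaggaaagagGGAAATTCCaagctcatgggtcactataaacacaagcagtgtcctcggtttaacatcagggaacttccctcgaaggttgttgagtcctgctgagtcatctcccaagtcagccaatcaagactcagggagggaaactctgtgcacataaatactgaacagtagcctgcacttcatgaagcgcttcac

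Cxcl11, chr14:15973478-15973727, strand +: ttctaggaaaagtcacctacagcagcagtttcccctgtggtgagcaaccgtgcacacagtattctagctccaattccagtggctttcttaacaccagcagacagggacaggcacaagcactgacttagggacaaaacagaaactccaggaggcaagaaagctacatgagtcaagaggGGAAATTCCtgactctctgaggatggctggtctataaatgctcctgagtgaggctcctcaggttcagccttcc

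Icam1, chr8:27829595-27829844, strand +: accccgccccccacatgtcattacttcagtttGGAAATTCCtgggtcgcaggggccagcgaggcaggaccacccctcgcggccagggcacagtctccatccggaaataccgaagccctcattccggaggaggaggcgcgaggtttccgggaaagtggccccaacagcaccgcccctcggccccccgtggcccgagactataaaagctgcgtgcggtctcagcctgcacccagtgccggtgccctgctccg

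Cxcl1, chr14:17479322-17479571, strand -: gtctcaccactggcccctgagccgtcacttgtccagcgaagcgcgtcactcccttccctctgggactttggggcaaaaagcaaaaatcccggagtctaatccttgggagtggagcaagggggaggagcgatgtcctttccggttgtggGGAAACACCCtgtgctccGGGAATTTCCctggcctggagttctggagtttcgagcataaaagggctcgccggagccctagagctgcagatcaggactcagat

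The letters GGAAATTCC, searched on both strands and chosen after these promoters had been read, stood in the promoters of 6 of the 53 genes (Cxcl10, Cxcl11, Icam1, Cxcl1, Cxcl6 and Ccr3), or 14.6% of the 41 entries, against 0.332% of 33469 promoters. The match began 186 bases before the start in Cxcl10, 73 in Cxcl11 and 218 in Icam1, so 3 of the 6 promoters of non-overlapping higher genes held it. The longer set, GGG, any pair of bases, then TTTCC, stood in 8 genes (19.5% of entries, against 1.53%), which were Ccl20, Ccl9, Ccr3, Cxcl1, Cxcl2, Cxcl6, Il1rn and Il6, and in none of the 6 promoters of non-overlapping higher genes. It can overlap the shorter one, as it does in Cxcl1. Except for Ccl20, these 8 genes had a mean level under 4. The STAT letters TTCNNNGAA stood in 7 genes (17.1% of entries, against 8.87%), Icam1 and Cxcl11 among them. A pair of TTTC separated by any 2 bases, as in interferon-response elements, stood in Cxcl10 and Ccl19 (4.88% of entries, against 3.92%). This pair, like GGAAATTCC, was chosen after the promoters had been read, so its place in 2 non-overlapping higher genes is no independent result. These matches describe the letters in this window and do not show that a factor binds there.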

How the data were processed

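RNA of the left kidney of 8 rats (4 Si deplete, 4 Si replete) was hybridized to 1 array each. The values were deposited on the log2 scale, after gcRMA and a summary of each probe set by m-estimators, and the submitters' processing notes name GCRMA 2.36.0. Probe intensities were not used here. The 4 arrays per group limit the precision.

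Si deplete was compared with Si replete in R 4.3.3 with limma 3.58.1 (lmFit and eBayes), with Benjamini-Hochberg adjustment over 31042 probe sets (57 controls left out) and a threshold of 0.1; an exact permutation test over 70 arrangements was run on single genes. Symbols come from the platform annotation, using probe sets with 1 symbol; all 53 genes were matched to RefSeq by Entrez ID. The genes, the pathway and marker lists and the rules were chosen with earlier results of these data known. Genes were described by array if their groups did not overlap or their mean was 8 or more; Ccl5, Ccl20, Ccl21, Ccr6, Cxcl1, Cxcl9, Cxcl13, Cxcr3 and Il1b were added after their values were seen, Csf1r and Cd3e are given beside related genes, and up to 5 genes of each pathway list were eligible by smallest p. Alternatives were array weights, a robust prior, an intensity trend, a replicate block, quantile normalization, subtracted array medians, a filter on means under 4, averaging the probe sets of a gene, Storey's q-value, a threshold of 0.05, leaving out each array and, added after seeing the data, leaving out Si deplete replicates 1 and 4. On simulated data for this comparison, 83% of 100 probe sets changed by 1 and 100% of 100 changed by 2 were recovered among 31042, with 26 false of 209 calls. The simulated noise was independent between probe sets, and no simulated array stood apart as Si deplete replicate 1 does. These shares therefore test the code and do not give the power of the real comparison.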

Additional observations from a re-analysis of the deposited data

Results flagged for a closer look

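Among the 106 groups of 4 arrays examined (53 genes in each diet group), 4 held an array far from the other 3, where chance gives about 1 in 20, or 5.3. Cxcl11 in Si deplete replicate 1 measured 11.57, with the other Si deplete kidneys at 9.26 to 9.54 (gap over range 0.881). Cxcl1 in the same kidney measured 3.24, with the others at 2.39 to 2.52 (0.850). Cxcl2 in Si deplete replicate 2 measured 1.45 and the others 1.82 to 1.87 (0.883). Cxcr1 in Si deplete replicate 4 measured 2.46 and the others 2.15 to 2.17 (0.951). All 4 lay in the Si deplete group, and 3 of the 4 genes were dim.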

How the results depend on the processing

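The count of genes called lower stayed at 0 under every alternative run, and that called higher was 0 except for 1 (Ccl19) without Si deplete replicate 3, so 0 to 1 as single arrays were left out, and 1 (Ccl19) with the replicate block (limma, adjusted p = 0.0954; 0.471% of all genes called higher). With each group's mean subtracted from every probe set, the correlations of same-numbered arrays were 0.088, 0.090, 0.079 and -0.088. On this measure 4 of 8 arrays correlated best with the same-numbered array of the other group. The rats were killed and processed singly, and each day took 1 rat per group, so the design held a pairing by day. The labels tie no array to a day, and whether the shared numbers mark such days is not stated. Because the correlations were small and the labels share only a number, the main fit did not treat same-numbered arrays as pairs. At an unadjusted p under 0.05, single arrays left out gave 7 (without Si replete replicate 3, with 8.22% of all genes) to 16 (without Si deplete replicate 3, with 11.7%) higher genes and 0 to 1 lower. Without probe sets of mean under 4 these counts were 7 and 0, and the median difference was 0.59. The lower count was 0 with array weights, quantile normalization, the replicate block, or without Si deplete replicates 1 and 4, and 2 when the probe sets of a gene were averaged. Non-overlapping higher genes numbered 7 to 14 with single arrays left out (14 without Si deplete replicate 3, with 10.3% of all genes) and 13 without Si deplete replicates 1 and 4 (with 13.6% of all genes). Non-overlapping lower genes numbered 1 to 2 with single arrays left out, 0 without probe sets of mean under 4, and 2 when the probe sets of a gene were averaged (5.44% of all genes) or without Si deplete replicates 1 and 4 (12.3%). All 7 non-overlapping higher genes stayed so whichever array was left out, which had to be so, because dropping an array cannot create an overlap. Subtracting array medians ended this for Cxcl10 and Cxcl16, and quantile normalization for Cxcl10. Il6st, called in the text, had adjusted p-values of 0.115 with the replicate block and 0.211 without Si deplete replicates 1 and 4, both from limma, at differences of 0.57 and 0.53, and kept its call with the trend, prior, weights, filter, scaling and probe set alternatives. The median difference was 0.08 to 0.14 with single arrays left out and 0.06 with array medians subtracted, where that of all genes was -0.06. Differences reversed for Ccl2 (-0.18 without Si deplete replicate 4, or -0.18 to 0.496 as single arrays were left out, and -0.0518 without Si deplete replicates 1 and 4), Ccl5 (-0.29 without both of these), Cxcl12 (0.0358 without Si deplete replicate 1, or -0.306 to 0.0358 as single arrays were left out, and 0.00904 without Si deplete replicates 1 and 4) and Il33 (-0.000769 without Si replete replicate 2, or -0.000769 to 0.152 as single arrays were left out); the cause was not tested. With fewer arrays, and with 32 of the 53 genes near the lower end of the scale, small differences could not be measured.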
